A study of Mus musculus with 2 samples.

Results

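The metalloproteinase genes and the genes of their tissue inhibitors were described in RNA of hair follicle stem cells from mouse skin in early anagen, the growth phase of the hair cycle. The members are all genes of the expression table whose symbol is that of a matrix metalloproteinase (Mmp), of a disintegrin and metalloproteinase (Adam), of an Adam with thrombospondin motifs (Adamts) or of a tissue inhibitor of metalloproteinases (Timp1 to Timp4). They came to 80 of 42392 gene IDs: 23 Mmp, 34 Adam, 19 Adamts and 4 Timp genes. All 80 are protein-coding in the RefSeq annotation of GRCm38.p6.

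The library came from a female mouse or mice carrying the K15-CrePGR transgene, a Cre fused to the progesterone receptor under a keratin 15 promoter, in a Shh+/- background. RU486, the ligand of this Cre fusion, had been given for 8 days. Its title names it a control in anagen II-III, and neither an age nor the number of animals is in the labels. The other sample of the series, in telogen, has the same sex, genotype and treatment and is also titled a control. It was not analysed here, because no column name of the table fits it alone. Cells had been sorted as high in integrin alpha 6 and positive for CD34, and negative for SCA1, CD140a, CD117, CD31 and CD45. With 1 library and no replicate, no value below carries an error, and the order of genes with close levels is not tested. Levels are TPM, a transcript abundance scaled for gene length and for the library total, and may be compared between genes of the library. The read depth behind them is unknown, and a gene at 0 TPM is said to be listed at 0.

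MMPs are zinc-dependent proteinases that are made as inactive proenzymes and, once activated, cut collagens, laminins and other matrix proteins. ADAMs are mostly membrane proteins, and the active ones release the outer parts of other membrane proteins such as growth factors and Notch receptors. ADAMTS enzymes are secreted and act on proteoglycans, procollagens and microfibrils, while TIMPs bind the catalytic site of active enzymes. In skin these families take part in basement membrane turnover, hair follicle growth and wound closure.

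The promoters of 6 genes are shown first: those of the 3 highest genes of the set, and those of 3 genes of a cluster of secreted Mmp genes that were all under 1 TPM. The last 3 were picked after the search because each holds both motifs named below. They are not the lowest members, since Mmp3 ranked 27th of 80, and other genes of the cluster, Mmp8, Mmp20 and Mmp27, lack the AP-1 letters. Each is the stretch of 250 bases that ends just before the RefSeq start site (GRCm38.p6), read 5′ to 3′ on the strand of the gene. Capitals mark every CG dinucleotide, the AP-1 motif TGAGTCA on either strand (TGACTCA on the other) and the TATA motif TATAAA. The windows lie at chr10:86300162-86300411 on the plus strand for Timp3, chr11:118355412-118355661 on the minus strand for Timp2 and chr14:54431348-54431597 on the plus strand for Mmp14. Those of the cluster are all on the plus strand, at chr9:7445572-7445821 for Mmp3, chr9:7502092-7502341 for Mmp10 and chr9:7272264-7272513 for Mmp13.
Timp3: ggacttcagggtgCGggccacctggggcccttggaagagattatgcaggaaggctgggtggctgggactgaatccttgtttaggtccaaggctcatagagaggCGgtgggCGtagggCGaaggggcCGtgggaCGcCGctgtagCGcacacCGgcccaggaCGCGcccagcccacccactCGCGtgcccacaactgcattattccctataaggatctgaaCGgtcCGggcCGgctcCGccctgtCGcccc
Timp2: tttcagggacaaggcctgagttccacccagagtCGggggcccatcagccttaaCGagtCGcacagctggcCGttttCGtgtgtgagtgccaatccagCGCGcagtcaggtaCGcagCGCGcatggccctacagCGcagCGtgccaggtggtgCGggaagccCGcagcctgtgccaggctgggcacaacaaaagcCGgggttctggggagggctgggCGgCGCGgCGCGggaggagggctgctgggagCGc
Mmp14: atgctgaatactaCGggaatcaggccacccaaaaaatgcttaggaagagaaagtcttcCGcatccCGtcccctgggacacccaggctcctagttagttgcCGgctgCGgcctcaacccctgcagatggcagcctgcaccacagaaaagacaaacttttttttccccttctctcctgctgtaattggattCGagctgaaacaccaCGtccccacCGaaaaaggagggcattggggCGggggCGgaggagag
Mmp3: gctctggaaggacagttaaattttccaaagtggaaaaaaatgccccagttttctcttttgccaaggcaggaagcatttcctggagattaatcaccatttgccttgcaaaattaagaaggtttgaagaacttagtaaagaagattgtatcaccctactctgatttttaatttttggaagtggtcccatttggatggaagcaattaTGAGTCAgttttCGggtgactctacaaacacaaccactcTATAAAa
Mmp10: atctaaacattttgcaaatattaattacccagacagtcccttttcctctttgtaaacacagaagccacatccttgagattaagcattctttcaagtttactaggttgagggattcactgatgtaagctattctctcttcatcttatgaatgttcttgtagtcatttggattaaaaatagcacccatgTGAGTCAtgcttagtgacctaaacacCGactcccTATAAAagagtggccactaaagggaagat
Mmp13: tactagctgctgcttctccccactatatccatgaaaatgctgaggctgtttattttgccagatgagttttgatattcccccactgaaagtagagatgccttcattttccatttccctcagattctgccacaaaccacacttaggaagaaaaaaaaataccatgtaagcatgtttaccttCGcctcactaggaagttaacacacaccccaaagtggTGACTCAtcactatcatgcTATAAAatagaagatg
The first 3 windows hold 18, 21 and 10 CG dinucleotides and neither of the other motifs. The last 3 hold 1 CG dinucleotide each, 1 AP-1 motif each and 1 TATA motif each. The AP-1 letters begin 46 bases before the start of Mmp3, 63 before that of Mmp10 and 35 before that of Mmp13, and the TATA letters 7, 29 and 16 bases before it.

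A few genes carried most of the RNA of these families, and inhibitors led. Timp3 and Timp2 together held 57.5% of the 689 TPM summed over the 80 genes, and with Mmp14 the share was 69.0%. The 10 highest genes held 88.5%. Of the 80 genes, 24 (30%) reached 1 TPM, against 34.1% of all gene IDs and 56.0% of nuclear protein-coding genes. At 10 TPM or more were 12 genes, where the share of coding genes was 31.9%. Another 35 lay above 0 and under 1 TPM, and 21 (26.3%) were listed at 0, against 20.3% of coding genes. The median over all 80 was 0.194 TPM, while that over coding genes was 2.44 TPM. In RNA of a cell population, fewer cells that express a gene and less RNA per cell cannot be told apart.

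**Figure D1:**
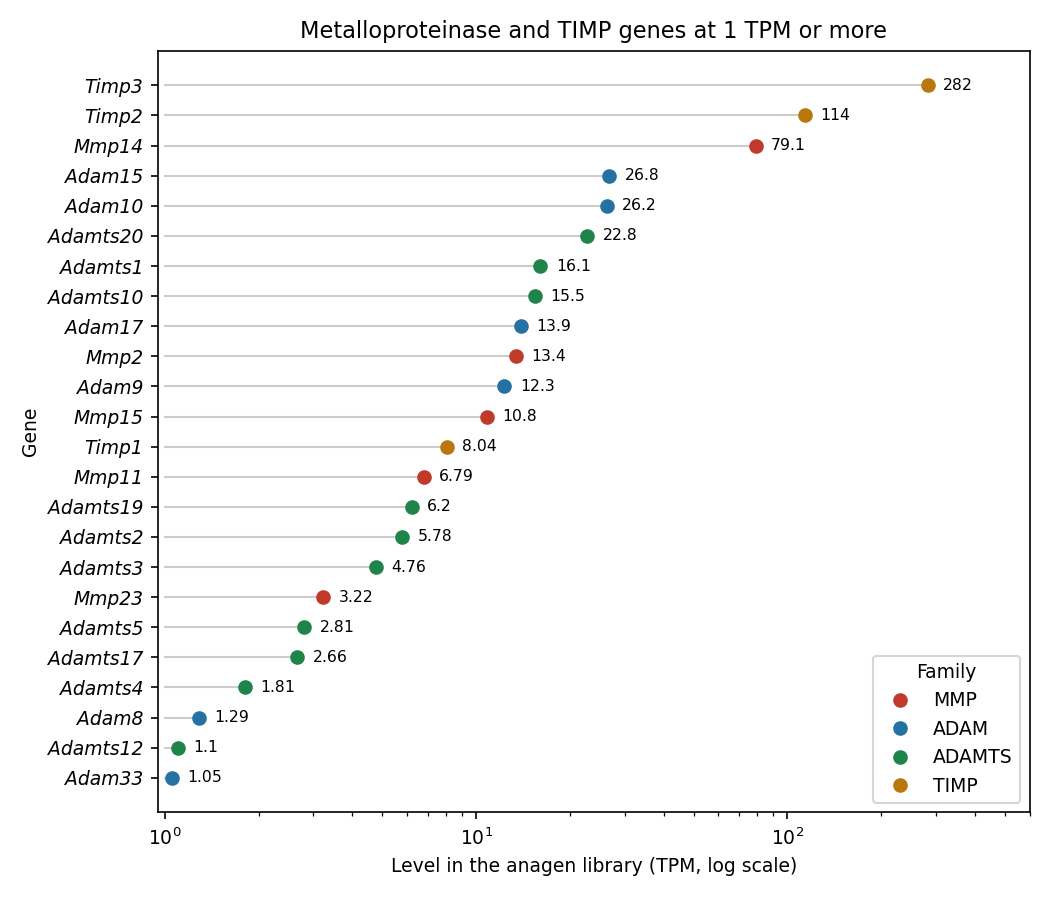
Levels of the 24 genes at 1 TPM or more in the anagen library, on a log axis in TPM, 1 point a gene, coloured by family. Timp3 at 282 TPM, Timp2 at 114 TPM and Mmp14 at 79.1 TPM stand above the rest, of which the highest is Adam15 at 26.8 TPM.

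The inhibitor genes ranged from the highest level of the set to a rank of 43 among the 80 genes. Timp3, whose protein is held in the extracellular matrix and also inhibits ADAM17 and several ADAMTS enzymes, stood at 282 TPM (ENSMUSG00000020044, chromosome 10, 86300412 to 86349505) and ranked 242nd among nuclear protein-coding genes. Timp2, which at the cell surface also takes part in activating the MMP2 proenzyme, stood at 114 TPM (ENSMUSG00000017466, chromosome 11, 118301061 to 118355411). Timp1, a soluble inhibitor often induced in injured tissue, stood at 8.04 TPM (ENSMUSG00000001131, chromosome X, 20870166 to 20874737). Timp4 stood at 0.140 TPM. Timp3 was thus 2.47-fold above Timp2 and 35.1-fold above Timp1. In the RefSeq annotation, 3 of these genes lie within the bounds of synapsin genes: Timp3 lies within Syn3, Timp1 within Syn1 and Timp4 within Syn2. The host genes stood at 1.27, 0.0770 and 0.0271 TPM, so Timp3 and Timp1 were above their hosts. Timp4 and Syn2 are both too low to be ranked at an unknown depth. The summed level of the Timp genes was 404 TPM, 1.42-fold that of the 76 Mmp, Adam and Adamts genes. Not all of the Adam genes encode an active proteinase. Against the Mmp genes alone the Timp sum was 3.46-fold.

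Other proteins that restrain metalloproteinases were listed as 8 genes. Of these, 3 reached 1 TPM, against 56.0% of coding genes and 34.1% of all gene IDs, and the median over the list was 0.387 TPM. Reck, a membrane-anchored inhibitor of several MMPs, stood at 2.46 TPM and Rarres1 at 1.98 TPM, while A2m, a protein that traps proteases, was lowest at 0.00368 TPM.

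**Figure D2:**
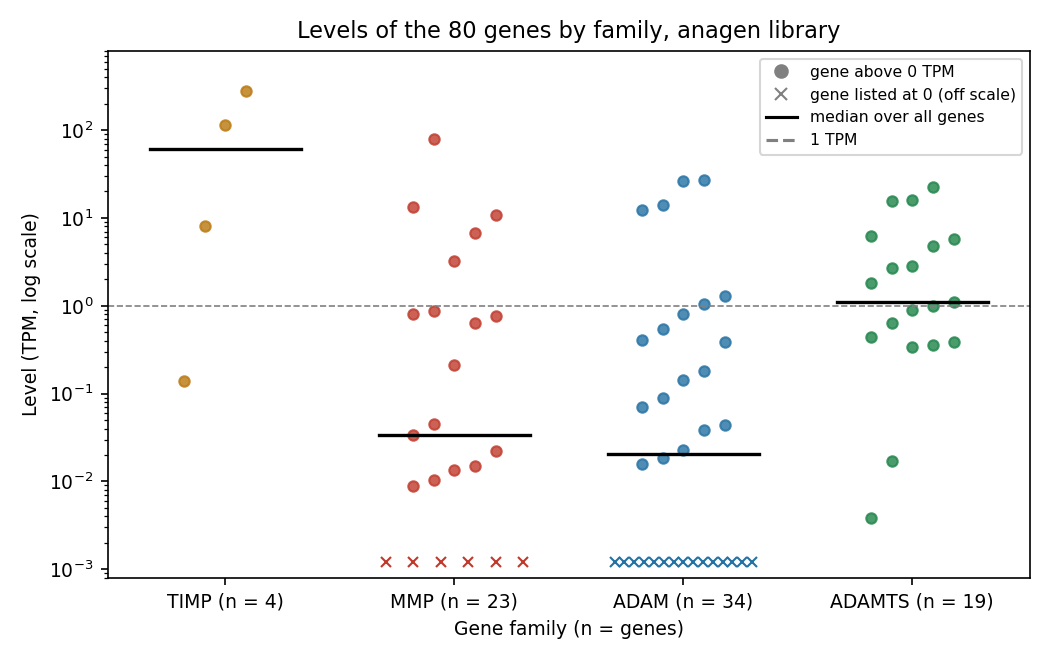
Levels of all 80 genes by family on a log axis in TPM, with the median over all genes of the family as a bar and genes listed at 0 as crosses below the scale. The Adamts median of 1.10 TPM lies above those of the Mmp genes (0.0342 TPM) and Adam genes (0.0205 TPM), and 6 Mmp and 15 Adam genes are crosses.

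Among Mmp genes, RNA was largely that of membrane-type enzymes. Of 23 genes, 5 reached 1 TPM (21.7%, against 56.0% of coding genes), 12 lay between 0 and 1 TPM and 6 were listed at 0. Mmp14, which encodes the membrane collagenase MT1-MMP, stood at 79.1 TPM (ENSMUSG00000000957, chromosome 14, 54431598 to 54442456). Mmp15, a membrane-type enzyme of the same group, stood at 10.8 TPM, so Mmp14 was 7.33-fold higher. Mmp23, an unusual membrane-bound member, stood at 3.22 TPM. The other 4 membrane-bound genes were under 1 TPM, from Mmp17 at 0.771 TPM down to Mmp24 at 0.00900 TPM.

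The parts of the known activation complex of MMP2 were all present as RNA. On the cell surface, MMP14 binds TIMP2, which in turn holds the MMP2 proenzyme for cleavage by another MMP14 molecule. Mmp14 stood at 79.1 TPM and Timp2 at 114 TPM, 1.44-fold higher, while Mmp2, which encodes gelatinase A, stood at 13.4 TPM. Timp2 was thus 8.49-fold and Mmp14 5.89-fold above Mmp2. The other gelatinase gene, Mmp9, stood at 0.0445 TPM. RNA levels do not show how much enzyme was active, or whether the RNAs of the complex came from the same cells.

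Secreted collagenase genes were low, and the stromelysin genes differed among themselves. None of the 4 collagenase genes reached 1 TPM: Mmp8 stood at 0.0222 TPM and Mmp13 at 0.0134 TPM, and Mmp1a and Mmp1b were listed at 0. Of the stromelysin genes, Mmp11, whose proenzyme is activated inside the cell by furin, stood at 6.79 TPM. Mmp3 stood at 0.873 TPM and Mmp10, an enzyme of wound-edge keratinocytes, was listed at 0. Of the other secreted enzymes, Mmp27 stood at 0.800 TPM, Mmp19 at 0.644 TPM and Mmp28 at 0.210 TPM. Mmp12, the macrophage elastase, stood at 0.0150 TPM, too low to be ranked against a listed 0 at an unknown depth. Mmp7, Mmp20 and Mmp21 were listed at 0.

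A group of 10 low Mmp genes are neighbours. Mmp13, Mmp12, Mmp1b, Mmp3, Mmp1a, Mmp10, Mmp8, Mmp27, Mmp20 and Mmp7 lie in this order over 427 kb of chromosome 9 (7272514 to 7699585). Their summed level was 1.72 TPM, of which Mmp3 and Mmp27 gave nearly all, and 5 of the 10 were listed at 0. Mmp3 and Mmp27 are not adjacent, since Mmp1a, Mmp10 and Mmp8 lie between them. Mmp1a and Mmp1b are close copies, so a read from either could be split between them. Other groups of neighbours held genes at higher levels. Adam9, at 12.3 TPM, lies beside Adam18, Adam3, Adam5 and Adam32 on chromosome 8, which stood between 0 and 0.0698 TPM. Adamts1 and Adamts5, a pair on chromosome 16 within 107 kb, stood at 16.1 and 2.81 TPM.

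**Figure D3:**
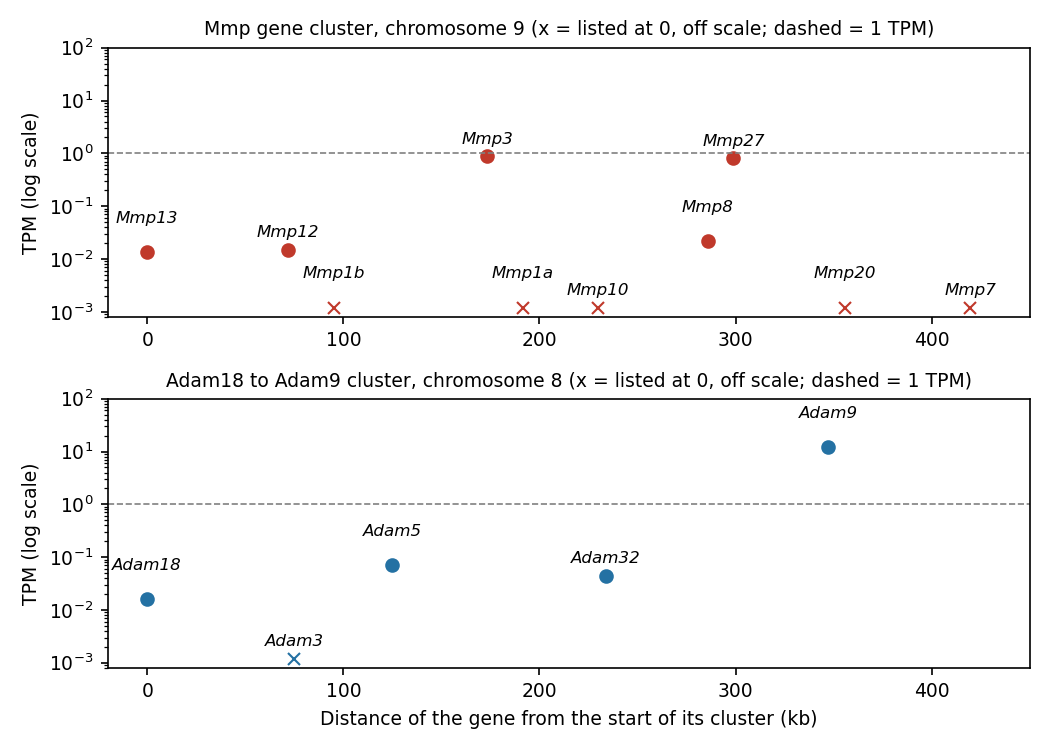
Levels in TPM on a log axis against the distance of each gene from the start of its cluster in kb, for the Mmp genes of chromosome 9 and for the group from Adam18 to Adam9 on chromosome 8, with genes listed at 0 as crosses below the scale. All 10 Mmp genes lie under the dashed line at 1 TPM, while Adam9 alone of its group lies above it, at 12.3 TPM.

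The Adam genes divided between broadly acting sheddases and genes known mainly from the reproductive tract. Of 34 genes, 6 reached 1 TPM (17.6%, against 56.0% of coding genes), 13 lay between 0 and 1 TPM and 15 were listed at 0 (44.1%, against 20.3% of coding genes). Adam15 stood at 26.8 TPM (ENSMUSG00000028041, chromosome 3, 89339640 to 89350028). Adam10, the main sheddase of Notch receptors, stood at 26.2 TPM (ENSMUSG00000054693, chromosome 9, 70678944 to 70780229). Adam17, which releases TNF and several ligands of the EGF receptor, stood at 13.9 TPM (ENSMUSG00000052593, chromosome 12, 21323509 to 21373632), so Adam10 was 1.88-fold higher. Adam9 stood at 12.3 TPM. Adam8, an enzyme best known from leukocytes, and Adam33 were close to the limit of 1 TPM, at 1.29 and 1.05 TPM. The other somatic proteinase genes stood at 0.551 TPM for Adam19, 0.391 TPM for Adam12 and 0.0381 TPM for Adam28.

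The neural genes Adam23, Adam11 and Adam22, whose proteins lack a working zinc site, stood at 0.403, 0.144 and 0.0886 TPM. Of the remaining 22 Adam genes, many of which are known from sperm and the epididymis, 15 were listed at 0 and 7 lay above it. The highest of these was Adam1a at 0.809 TPM. Near copies such as Adam6a and Adam6b can share reads, and both were listed at 0. All 8 genes of a pair of groups on chromosome 8, Adam24, Adam25, Adam20 and Adam39 in the first and Adam26b, Adam26a, Adam34l and Adam34 in the second, were listed at 0. Adam4, at 0.179 TPM, lies inside Cox16, which stood at 48.4 TPM, and its reads may not be separable from those of its host.

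Proteins that control ADAM10 and ADAM17 were listed as 9 genes. Of these, 6 reached 1 TPM, a share near the 56.0% of coding genes, and the median over the list was 13.0 TPM. Rhbdf1, which encodes an iRhom that brings ADAM17 to the cell surface, was highest at 56.8 TPM, and the related Rhbdf2 stood at 17.9 TPM. Tspan14, a tetraspanin partner of ADAM10, stood at 27.5 TPM. The tetraspanin gene Tspan15 was lowest, at 0.456 TPM.

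Genes of proteins known to be shed ranged from very high to very low. Of 23 listed, 19 reached 1 TPM, against 56.0% of coding genes, and the median over the list was 8.09 TPM. Sdc1, a heparan sulfate proteoglycan of the epithelial surface, stood at 713 TPM and App at 402 TPM. Col17a1, the hemidesmosomal collagen of bulge cells, stood at 398 TPM, and the ADAM10 substrates Notch1 and Cdh1 at 84.1 and 77.6 TPM. The EGF receptor ligand genes were far lower: Hbegf at 5.58 TPM, Epgn at 1.49 TPM, Tgfa at 1.42 TPM and Areg at 1.34 TPM. Btc and Ereg, also genes of such ligands, were under 1 TPM, at 0.248 and 0.134 TPM. Erbb4 was lowest at 0.00424 TPM.

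Adamts genes were the proteinase family with the most members at 1 TPM or more. At 10 TPM or more this order did not hold, with 4 Adam, 3 Adamts and 3 Mmp genes. Of 19 genes, 10 reached 1 TPM (52.6%, against 56.0% of coding genes), 9 were lower and none was listed at 0. Of the enzymes that cut versican and related proteoglycans, Adamts20, the gene mutated in belted mice, stood at 22.8 TPM (ENSMUSG00000022449, chromosome 15, 94268314 to 94432074). Adamts1 stood at 16.1 TPM (ENSMUSG00000022893, chromosome 16, 85793827 to 85803113), Adamts5 at 2.81 TPM and Adamts4 at 1.81 TPM. Adamts9, the closest relative of Adamts20, was at 0.885 TPM, so Adamts20 was 25.7-fold higher. Adamts15 and Adamts8 stood at 0.439 and 0.361 TPM.

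Of the procollagen N-propeptidases, which trim fibrillar procollagens, Adamts2 stood at 5.78 TPM, Adamts3 at 4.76 TPM and Adamts14 at 0.386 TPM. Of the other members, Adamts10, which is linked to fibrillin microfibrils, stood at 15.5 TPM (ENSMUSG00000024299, chromosome 17, 33523646 to 33553782). Its near relative Adamts6 was 0.645 TPM, a 24.0-fold lower level. Adamts19 stood at 6.20 TPM, Adamts17 at 2.66 TPM and Adamts12 at 1.10 TPM. Just under the limit of 1 TPM was Adamts7 at 0.983 TPM. Adamts13, the plasma enzyme that cuts von Willebrand factor, was lowest at 0.00383 TPM.

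Matrix proteins that ADAMTS enzymes cut were led by fibrillar collagens. Of 9 listed genes, 5 reached 1 TPM, about the share of coding genes (56.0%), and the median over the list was 3.37 TPM. Col3a1 and Col1a1 stood at 287 and 278 TPM, and the proteoglycan gene Vcan, which encodes versican, at 11.2 TPM. Bcan, a brain proteoglycan gene, was listed at 0. Of 6 genes of ADAMTS-like proteins, which share the family's matrix-binding domains without the proteinase, 4 reached 1 TPM, against the same 56.0%. Adamtsl4 was highest at 59.6 TPM, above each of the 19 Adamts genes, followed by Adamtsl5 at 16.1 TPM, and Adamtsl2 was lowest at 0.220 TPM.

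Genes of basement membrane and adjoining matrix proteins, the substrates at the border of the follicle, were expressed throughout. All 17 reached 1 TPM, against 56.0% of coding genes, and the median over the list was 70.5 TPM. Postn stood at 288 TPM, Col4a1 at 157 TPM and Nid2 was lowest at 1.63 TPM.

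Genes that act in the activation of metalloproteinase proenzymes reached 1 TPM, apart from plasminogen. Of 8 listed genes, 7 did so, against 56.0% of coding genes, and the median over the list was 11.4 TPM. Furin, a Golgi convertase that cuts the proenzymes of MMP14, MMP11 and most ADAMs, stood at 53.9 TPM. Plat and Plau, the tissue and urokinase plasminogen activators, stood at 24.1 and 15.2 TPM, while Plg, the liver gene of plasminogen itself, was at 0.00650 TPM. Of 7 genes of the tolloid and astacin metalloproteinases and their enhancers, 4 reached 1 TPM, about the share of coding genes. Bmp1, the procollagen C-proteinase, led at 45.9 TPM, followed by its enhancer Pcolce at 17.8 TPM, and Mep1a, Mep1b and Tll2 were listed at 0.

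**Figure D4:**
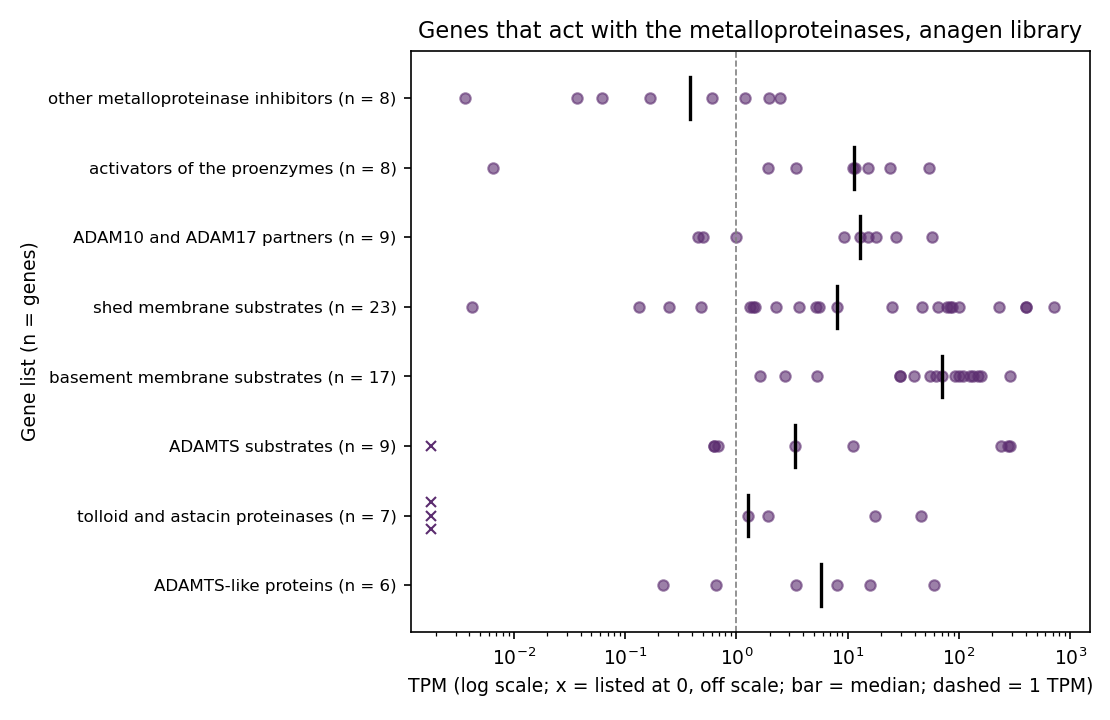
Levels of the genes of 8 lists of inhibitors, activators, partners and substrates on a log axis in TPM, 1 point a gene, with the median of each list as a bar and genes listed at 0 as crosses below the scale. All 17 genes of basement membrane and adjoining matrix proteins lie above 1 TPM with a median of 70.5 TPM. Of the 8 other inhibitors, 5 lie below 1 TPM.

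Some members, such as Mmp2, Mmp11, Adamts2 and Adam8, are also known from stroma or leukocytes, and the library carried RNA of genes that mark such cells. The marker counts below stand beside the 56.0% of coding genes that reached 1 TPM. All 8 bulge genes were above 1 TPM, from Krt5 at 3833 TPM to Nfatc1 at 16.1 TPM. All 8 fibroblast genes were above it too, and summed to 908 TPM: Col3a1, Col1a1 and Col1a2 (237 TPM) were far above Dcn at 63.9 TPM and Pdgfra, the gene of the excluded marker CD140a, at 1.44 TPM. Of 7 leukocyte genes, 4 reached 1 TPM and the sum was 32.0 TPM, with Ptprc, the gene of CD45, at 0.264 TPM. Of 4 endothelial genes, 3 reached 1 TPM and the sum was 8.76 TPM, and all 4 melanocyte genes did, with a sum of 43.1 TPM. Of 3 smooth muscle genes, Acta2 stood at 254 TPM and Myh11 and Des at 0.755 and 0.576 TPM. Of 4 suprabasal genes, 3 reached 1 TPM and the sum was 178 TPM. No marker of these lists was at 0. The part of these cells in the levels of the members, Timp3, Timp2 and Mmp14 included, was not tested.

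For some members the level depends on how reads of overlapping genes were assigned, and the sources used here do not say whether the counting used strand. Mmp19 overlaps Tmem198b, at 11.2 TPM, over 2739 bases. Mmp23 and Adam17 overlap Mib2 and Iah1, at 21.9 and 29.6 TPM, over only 72 and 99 bases.

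Promoter composition differed along the range of levels. RefSeq promoters matched 50 of the 80 genes by symbol, with 55 start sites. The 17 of these genes at 1 TPM or more had a median of 15.5 CG dinucleotides in the 250 bases, from 6 to 35. The 19 genes above 0 and under 1 TPM had a median of 4, and the 14 genes listed at 0 one of 0.5, with at most 3.5 as the median over the starts of Mmp7. The same order held over all coding genes with a promoter entry, where the medians were 16, 6 and 2. The members thus followed a pattern shared by coding genes as a whole. A high count did not go with a high level in every gene, since Adamts14 with 35 stood at 0.386 TPM and Mmp24 with 33 at 0.00900 TPM. The GC box GGGCGG, searched on both strands, was in the window of 14 of the 17 genes at 1 TPM or more (82.4%) and of none of the 14 listed at 0. In all coding genes these shares were 65.2% and 9.68%. The GC box itself holds a CG, so these counts are not independent.

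The AP-1 motif was found mostly in the Mmp cluster of chromosome 9. The letters TGAGTCA, searched on both strands, stood in at least 1 window of 7 of its 10 genes: Mmp1a, Mmp1b, Mmp3, Mmp7, Mmp10, Mmp12 and Mmp13. Outside the cluster, 2 of 40 members held them (5%), Adam19 and Adam29, and of all coding genes 4.77%. None of the 17 members at 1 TPM or more held them, where the share of coding genes at that level was 3.89%. The TATA motif TATAAA, searched on the strand of the gene, was in 7 of the 10 cluster genes, against 8.85% of all coding genes. It was also in Adamts1, 32 bases before the start, the only one of the 17 members at 1 TPM or more with it. The genes of the cluster are related copies with shared sequence, so they are not independent of each other. A match of letters is a description of the window and does not show that a factor binds there.

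**Figure D5:**
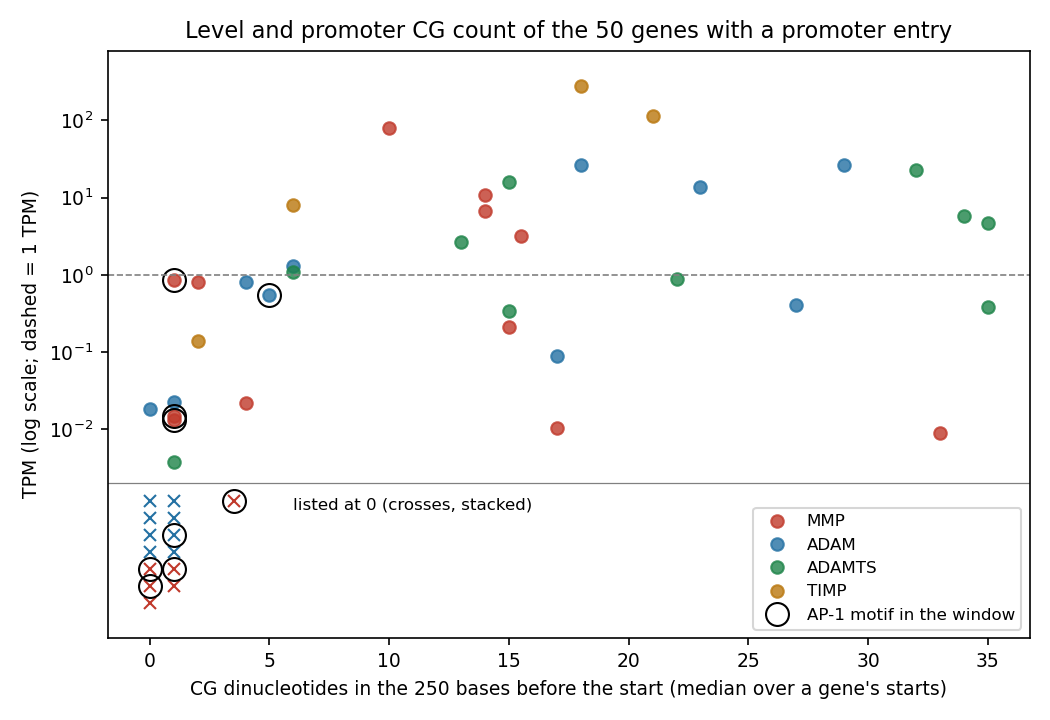
Level in TPM on a log axis against the number of CG dinucleotides in the 250 bases before the start for the 50 genes with a promoter entry, coloured by family, with genes listed at 0 as stacked crosses and a ring around the 9 genes with the AP-1 motif. All genes at 1 TPM or more have at least 6 CG dinucleotides, and all ringed genes lie under the dashed line at 1 TPM.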

How the data were processed

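Sorted hair follicle stem cells were profiled by RNA-seq with an Illumina mRNA kit and paired-end reads, per the labels' protocols. The deposited values are TPM, as computed by the authors per the file headers. Bowtie2 2.2.9, RSEM 1.2.30 and the mm10 build are named in the submitters' processing notes. The sources used here do not give the annotation or the strand setting. The column starting with 1 was taken as the anagen sample, whose title alone carries that number, and 11 other value columns were not used. Each gene ID was used once (42392 IDs in 42661 rows), and the TPM then summed to 1000000.

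Genes were counted at a minimum of 1 TPM, with no test. The members and lists were chosen with earlier results of these data known, and the promoter search was chosen after the levels were seen. It replaced a planned search of protein sequences, which were not used here. Members at 1 TPM or more, the 3 next below, the Mmp cluster and, from each list, the 2 highest genes and the lowest are named by rule. Other list genes, the synapsin hosts and overlapping genes were added after their values were seen. Some genes that these rules would name are not reported here. Neighbouring members lie within 1 Mb of each other. Sequences and positions are those of RefSeq, GRCm38.p6. The motif search was tested on simulated windows. Calculations used Python 3.11.15, pandas 2.3.3 and numpy 2.4.6, and plots matplotlib 3.10.9.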

Additional observations from a re-analysis of the deposited data

How the results depend on the processing

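The counts, sums and medians are those of 1 library, and no paired analysis was possible because the stages share no replicate and 1 library was analysed. Rescaling the TPM without mitochondrial genes and the 50 highest genes raised every member above 0 TPM 1.73-fold: the sum became 1191 TPM, the median 0.336 TPM, and 8 more members passed 1 TPM, which took the Mmp genes at that level from 5 to 9. The Timp sum stayed 1.42-fold that of the Mmp, Adam and Adamts genes, since rescaling moves both sums alike. A minimum of 0.5 TPM also gave 9 Mmp genes, and one of 5 TPM left 5 of 10 Adamts genes. The median over the members at 1 TPM or more was 9.42 TPM. Using only protein-coding IDs or every table row could change none of these values, since both settings hold the same 80 genes. As depth is unknown, the listed zeros and levels of a few hundredths of a TPM cannot be ranked against each other.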

Other observations

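The genes of the AP-1 subunits, the factors known to bind the letters TGAGTCA, ranged widely in the same library and were looked up after the promoters had been searched. Fos stood at 237 TPM, Jun at 233 TPM, Junb at 124 TPM and Jund at 100.03 TPM, while Fosl2, Fosb and Fosl1 stood at 25.7, 16.1 and 1.61 TPM. Of the 7 genes of the Mmp cluster with these letters in their promoters, Mmp3 at 0.873 TPM was the highest. Whether AP-1 factors act at these promoters was not tested.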
